A study of Mus musculus with 24 samples.

Results

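The comparison described here was that of SCI against SHAM in the sensorimotor cortex of P90 mice 3 days after surgery. It took 6 of the 24 libraries of the series, 3 SCI and 3 SHAM, chosen by their sample labels. For the comparison of times and ages, 12 more libraries were used, 3 SCI and 3 SHAM of P90 mice at 12 h and 3 SCI and 3 SHAM of P15 mice (postnatal day 15) at 3 days, so 18 in all. The 6 came from male C57BL/6J mice of postnatal day 90. In the SCI group the spinal cord was cut through completely at the lower cervical level with a needle. In the SHAM group, which the labels call control and wild type, the cord was exposed under the same anaesthesia and left intact. The cortex lies far from the lesion, and holds the cell bodies of the corticospinal axons that the cut divides. What was taken is given in the methods once as all of the sensorimotor cortex and once as its layer V. The question was which miRNAs differ in the cortex when the cord below it has been cut. Each library was made from the small RNA of 1 individually collected cortex. Reads of at least 18 nt that matched an arm of a named mouse miRNA hairpin without mismatch were summed per arm. Of the 1656 miRNAs with a read in any of the 18 libraries, 1448 entered a fit of the 6 libraries with no filter, and 768 reached a mean of 5 normalized counts over the 6 libraries and were tested. A normalized count is the read count of a miRNA after division by the TMM-scaled size of its library, set to the mean size of the 6 libraries.

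A miRNA is cut from a folded hairpin, first in the nucleus by Drosha and then in the cytoplasm by Dicer. The cuts leave a short duplex of a 5p and a 3p strand. Usually a single strand is loaded into an Argonaute protein and kept, and the other is degraded. The bases 2 to 8 of the loaded strand, its seed, pair with target mRNAs and lower their translation or stability. The ends of a mature miRNA are not fixed, since the cuts vary and the 3′ end can be trimmed or extended afterwards. Many miRNAs lie in introns or in clusters and are transcribed with their host or their neighbours. In the cortex, miR-9, miR-124, miR-128 and the let-7 family are known as abundant miRNAs of neural cells.

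The 11 miRNAs called in this comparison are shown by their most abundant sequence over the 18 libraries, because each names the strand whose reads were summed and because their ends return below. The seed is in capitals. The 6 that were higher in SCI were as follows.
miR-7b-3p: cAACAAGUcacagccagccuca
miR-5126: cGCGGGCGgggccggggg
miR-5128: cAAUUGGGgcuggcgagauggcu
miR-6481: cACUGAAAaugcuuagau
miR-206-3p: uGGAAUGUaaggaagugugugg
miR-21a-3p: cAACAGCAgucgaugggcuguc
The 5 that were lower in SCI were as follows.
miR-671-5p: aGGAAGCCcuggaggggcuggagg
miR-3470b-3p: aCCUGCCUcugccucccga
miR-667-5p: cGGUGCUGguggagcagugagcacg
miR-1298-5p: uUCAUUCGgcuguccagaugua
miR-448-5p: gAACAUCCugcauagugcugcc
No seed was shared by any pair of the 11. RefSeq holds a mature sequence for 10 of them (GRCm38.p6 table), and 7 of the 10 are identical to the sequence counted here. miR-671-5p was read most often as 24 nt, 1 nt longer than its RefSeq form, and miR-6481 as 18 nt, 1 nt shorter. In the SHAM libraries, a 22-nt form of miR-6481 that starts earlier and has another seed was read more often. It had 75, 18 and 18 reads there, against 70, 14 and 6 of the 18-nt form. For miR-5128, a form that starts 1 nt later and so has another seed was read slightly more often in the 6 libraries, 18 times against 16.
miR-5128, later start: aAUUGGGGcuggcgagauggcuu
The 18-nt sequence of miR-5126 starts 1 nt before its RefSeq form, which is 22 nt long.
These are the sister strands and relatives that the results on miR-7b-3p refer to.
miR-7a-2-3p: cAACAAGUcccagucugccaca
miR-7a-1-3p: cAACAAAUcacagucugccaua
miR-7b-5p: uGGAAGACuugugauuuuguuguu
miR-7a-5p: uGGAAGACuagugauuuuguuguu
The seed of miR-7b-3p is shared by miR-7a-2-3p and not by miR-7a-1-3p, and both 5p strands have a seed of their own.

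The SHAM libraries held 37349056, 11199173 and 22380030 reads and the SCI libraries 20516265, 14142307 and 11618070 reads. Reads assigned to miRNAs were 72.1% to 74.9% of each library, so that 3 reads correspond to 0.0803 to 0.268 RPM. The 10 most abundant miRNAs took 51.2% to 53.3% of the miRNA reads of every library. They were miR-29a-3p, miR-128-3p, miR-9-5p, miR-26a-5p, miR-9-3p, miR-30a-5p, miR-181a-5p, let-7g-5p, let-7f-5p and miR-132-3p. The neural miR-9 and miR-128 are among them, as the label of the tissue has it. No 2 replicates of a group were copies of each other. The squared differences of their counts were 37.3 to 437 times those of sampling noise (chi-square per degree of freedom). SHAM 2 had the smallest library and stood apart from SHAM 1 and SHAM 3 in a set of miRNAs described below, so results that rest on it are given with and without it.

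Of the 768 miRNAs tested, 11 were called between SCI and SHAM (1.43%) in edgeR's quasi-likelihood test. A call needed an adjusted p below 0.05 and a change of more than 1 on the log2 scale. Of these, 6 were higher in SCI (0.781%) and 5 were lower (0.651%). Among the called miRNAs, the largest differences were those of miR-5126, which was 11.9-fold higher, and miR-1298-5p, which was 11.1-fold lower. None of the 10 most abundant miRNAs was called, and their log2 fold changes lay between -0.21 and 0.16. The calls were on miRNAs of low or middle abundance, as the plot of the change against the mean count shows. At an unadjusted p under 0.05 there were 146 miRNAs, 58 higher and 88 lower. The median log2 fold change over the 768 was -0.03. The SCI and SHAM libraries did not overlap for all 11 called miRNAs, and for 183 of the 768 tested (23.8%).

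**Figure D1:**
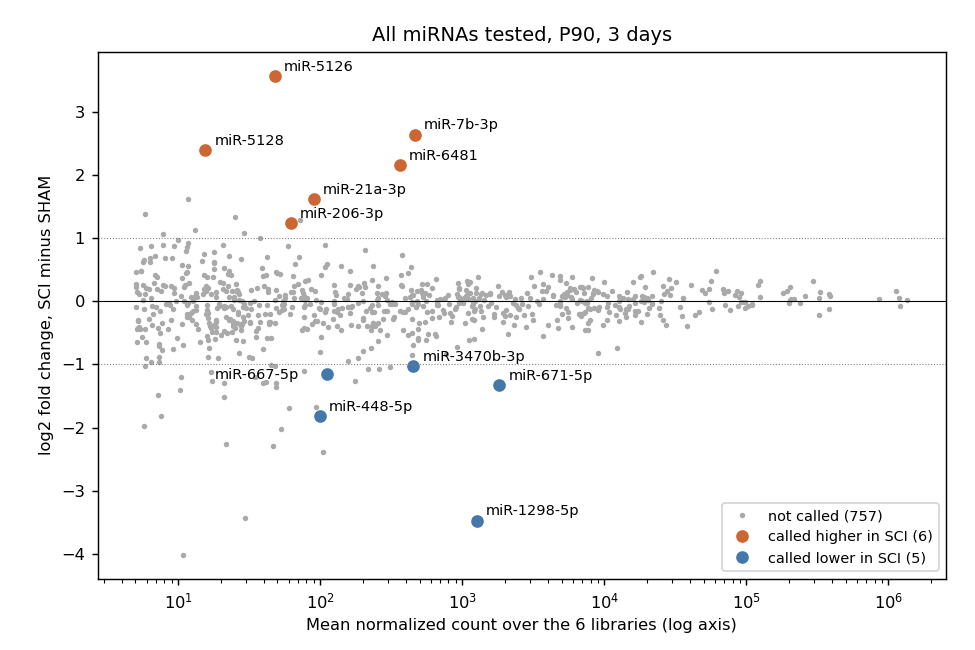
The log2 fold change of SCI minus SHAM is plotted against the mean normalized count over the 6 libraries (log axis) for the 768 miRNAs tested, each point being 1 miRNA. Named points are the 11 called miRNAs, 6 above and 5 below 0, and dotted lines mark the limit of 1.

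miR-7b-3p, miR-671-5p and miR-5126 kept their call whichever of the 6 libraries was left out. The other 8 lost it when any SCI library was left out, which left 3 calls each time. Counting reads of at least 20 nt left 4 calls, those of miR-7b-3p, miR-671-5p, miR-667-5p and miR-5128. In that count miR-1298-5p, miR-448-5p, miR-206-3p, miR-21a-3p and miR-6481 kept their direction with adjusted p-values of 0.0531, 0.0545, 0.0602, 0.0545 and 0.113. With the 12 P90 libraries in 1 fit, the calls of miR-6481 (adjusted p = 0.0654), miR-1298-5p (0.0746), miR-448-5p (0.0586), miR-206-3p (0.0746) and miR-3470b-3p (0.431) were lost. That of miR-206-3p was also lost with scaling by total reads (0.0587), and that of miR-21a-3p with counts thinned to the smallest library (0.0844). Without SHAM 1 there were 6 calls, and without SHAM 3 there were 8, of which 5 and 7 belonged to the 11. Without SHAM 2 there were 37 calls, which held all 11 and 26 more, 24 of them lower in SCI.

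**Figure D2:**
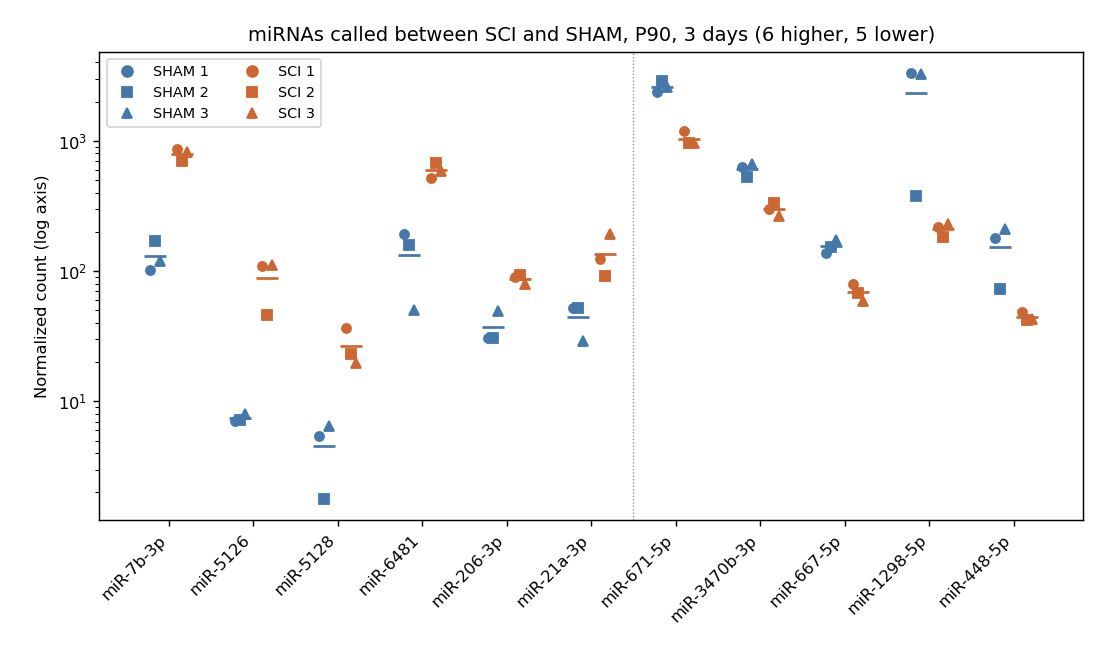
Normalized counts (log axis) of the 11 called miRNAs are plotted in each of the 3 SHAM (blue) and 3 SCI (orange) libraries, with a bar at the mean of each group. The 6 miRNAs left of the dotted line were higher in SCI and the 5 right of it lower, and SHAM 2 lies well below SHAM 1 and SHAM 3 for miR-1298-5p and miR-448-5p.

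miR-7b-3p is the 3p strand of the Mir7b hairpin (ENSMUSG00000065491.1), which lies outside annotated host genes. Its sequence lies at chr17:56243055-56243076 on the plus strand of GRCm38. The miR-7 hairpins are known for their 5p strands, which are abundant in neurons and neuroendocrine cells. The normalized counts of miR-7b-3p were 102, 170.2 and 119 in SHAM and 869, 694 and 826 in SCI. All 3 SCI libraries lay far above the highest SHAM library. The difference was 6.24-fold (log2 fold change 2.64 ± 0.21, SE, adjusted p = 0.000205, n = 3 per group). The counts behind it were 95 to 189 reads in SHAM and 480 to 902 in SCI.

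The 5p strand of the same hairpin did not follow. miR-7b-5p had normalized counts of 17271, 11460 and 16967 in SHAM and 14974, 15337 and 11551 in SCI, so that the groups overlapped (log2 fold change -0.13 ± 0.17, SE, adjusted p = 0.756). It was the far more abundant strand in every library. miR-7a-2-3p, which shares the seed of miR-7b-3p, was at 225, 96.8 and 289 in SHAM and 92.5, 133 and 99.8 in SCI. Its log2 fold change was -0.94 ± 0.34 (SE, adjusted p = 0.191), in the other direction. Without SHAM 2, which was the lowest SHAM library for miR-7a-2-3p, the difference was -1.25 with an adjusted p of 0.0093. miR-7a-1-3p had counts of 3614, 4203 and 3302 in SHAM and of 5128, 5151 and 4491 in SCI, with no overlap and a log2 fold change of 0.41 ± 0.12 (SE, adjusted p = 0.1). miR-7a-5p overlapped between the groups, with a log2 fold change of -0.21 ± 0.23 (SE, adjusted p = 0.682). Of the 5 strands of the miR-7 hairpins, 1 was called, against 1.43% of all miRNAs tested.

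miR-5126 was read almost only as its 18-nt sequence, which is made of G and C alone. The sequence lies at chr1:84695889-84695906 (plus strand) in no annotated host gene. Its normalized counts were 7.01, 7.17 and 8.02 in SHAM and 109, 46.3 and 111 in SCI without overlap. The log2 fold change was 3.57 ± 0.39 (SE, adjusted p = 0.0013). The SHAM values rest on 13, 4 and 10 reads. All of its reads were shorter than 20 nt, so it dropped out when shorter reads were not counted.

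miR-5128 lies in an intron of Strbp, a gene for an RNA-binding protein, at chr2:37688212-37688234 (minus strand). It had normalized counts of 5.39, 1.79 and 6.42 in SHAM and 36.6, 23.15 and 19.6 in SCI, which correspond to 85 reads in the 6 libraries and 1 read in SHAM 2. The log2 fold change was 2.39 ± 0.41 (SE, adjusted p = 0.0211). miR-6481 was at 191, 159 and 50.5 in SHAM and at 515, 679.9 and 591 in SCI (log2 fold change 2.15 ± 0.39, SE, adjusted p = 0.0282). Its most abundant sequence, at chr3:99199368-99199385 (minus strand), also lies without mismatch in mt-Tf, the mitochondrial tRNA for phenylalanine. Reads of the miRNA and of fragments of that tRNA cannot be told apart.

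miR-206-3p, a miRNA known from skeletal muscle, was at 30.7, 30.5 and 49.7 in SHAM and at 90.5, 92.6 and 80.2 in SCI. The SCI libraries lay together above the SHAM libraries, with a log2 fold change of 1.23 ± 0.24 (SE, adjusted p = 0.0389). It lies at chr1:20679055-20679076 (plus strand) in an exon of the lincRNA Gm28653. The other muscle miRNAs that could be tested had smaller differences. miR-1a-3p had a log2 fold change of 0.36 ± 0.16 (SE) with overlapping groups, and miR-133a-3p one of 0.13 ± 0.12 (SE). miR-133b-3p was below the filter.

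miR-21a-3p is the less abundant strand of Mir21a, whose 5p strand is widely known to rise with inflammation and injury. The sequence of miR-21a-3p lies at chr11:86584082-86584103 (minus strand) in an exon of Vmp1. Reads of miR-21a-3p and of the Vmp1 transcript that holds it cannot be told apart by sequence. miR-21a-3p was at 52.3, 52.0 and 28.9 in SHAM and at 124, 91.1 and 191 in SCI (log2 fold change 1.61 ± 0.32, SE, adjusted p = 0.0389). miR-21a-5p had 65262 to 90193 normalized counts in SHAM and 86502 to 94224 in SCI, and its log2 fold change was 0.17 ± 0.13 (SE, adjusted p = 0.555). As in Mir7b, the rarer strand was called and the abundant strand was not.

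miR-671-5p had the firmest call among those lower in SCI. It lies in an exon of Chpf2, a gene for an enzyme of chondroitin sulfate synthesis, at chr5:24592132-24592155 (plus strand), and is known for its site in the circular RNA Cdr1as. Reads of the miRNA and of the Chpf2 transcript that holds it cannot be told apart by sequence. Its normalized counts were 2391, 2863 and 2575 in SHAM and 1199, 963 and 955 in SCI. The SCI libraries lay close together and well below the lowest SHAM library. The difference was 2.51-fold (log2 fold change -1.33 ± 0.13, SE, adjusted p = 0.000953). The 3p strand, miR-671-3p, was lower by less, at 424, 455 and 589 in SHAM and 360.2, 323 and 335 in SCI (log2 fold change -0.53 ± 0.16, SE, adjusted p = 0.119).

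miR-667-5p and miR-543-3p both lie in the imprinted miRNA cluster of chromosome 12, at chr12:109720020-109720044 and chr12:109717304-109717325 (plus strand). miR-667-5p was at 138, 152 and 174 in SHAM and at 79.9, 68.0 and 58.9 in SCI (log2 fold change -1.15 ± 0.19, SE, adjusted p = 0.0209). Its sister strand miR-667-3p had a log2 fold change of -0.18 ± 0.13 (SE, adjusted p = 0.491). miR-543-3p passed the adjusted p alone. It had 10591, 12058 and 12107 normalized counts in SHAM against 6945, 6936 and 5779.7 in SCI, without overlap, and a log2 fold change of -0.82 ± 0.11 (SE, adjusted p = 0.00522), under the limit of 1. Its 5p strand had a log2 fold change of -0.04 ± 0.14 (SE).

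miR-3470b-3p was at 632, 523 and 666 in SHAM and at 299, 333 and 265 in SCI (log2 fold change -1.02 ± 0.16, SE, adjusted p = 0.012). The 19-nt sequence at chr16:44013924-44013942 (plus strand) also lies without mismatch in annotated transcripts of 80 other genes, and RefSeq names no mature miRNA for this arm. What was counted under this name can therefore come from many transcripts. Its call was lost with DESeq2 (log2 fold change -0.998, adjusted p = 2.58e-07), where the value fell just under the limit of 1, and likewise with DESeq2's size factors (-0.995) and a GC correction (-0.93). It was lost with reads of at least 20 nt too (-0.54, adjusted p = 0.16).

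miR-1298-5p and miR-448-5p lie in introns of Htr2c, the gene of the serotonin 2C receptor, at chrX:147064918-147064939 and chrX:147158221-147158242 (plus strand). Htr2c is known to be strongly expressed in the choroid plexus and also in neurons. miR-1298-5p was at 3301, 374 and 3279 in SHAM and at 217, 182 and 229 in SCI (log2 fold change -3.48 ± 0.65, SE, adjusted p = 0.0318). SHAM 1 and SHAM 3 were far above every SCI library, and SHAM 2 lay near them. miR-448-5p was at 179, 73.5 and 209 in SHAM and at 48.2, 41.95 and 42.5 in SCI (log2 fold change -1.82 ± 0.35, SE, adjusted p = 0.0328). Both lost their call without SHAM 1, without SHAM 3 and without any SCI library, with adjusted p-values of up to 0.187.

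The list of 10 strands from the Htr2c introns moved together by library. Of its 9 tested strands, 9 were lower in SCI, 9 had an unadjusted p under 0.05, and 2 were called. Over all 768 miRNAs, 408 were lower, 146 had such a p and 1.43% were called. Their median log2 fold change was -1.82, against -0.03 over all miRNAs. Their summed normalized counts were 4823, 758 and 4804 in SHAM and 593, 660 and 661 in SCI. SHAM 2 thus stood at the level of the SCI libraries, and the SCI and SHAM libraries overlapped for 6 of the 9 and not for 3, against 23.8% without overlap among all miRNAs. miR-448-3p was at 229, 28.7 and 267 in SHAM and at 25.04, 40.5 and 39.3 in SCI. miR-1264-3p was at 124, 25.1 and 106 against 22.1, 20.2 and 22.9. miR-1912-3p was not read in SHAM 2 or in SCI 1. Without SHAM 2 the other 7 tested strands of these introns were called as well. With it, the adjusted p of those 7 was 0.0649 to 0.201. SHAM 2 was the lowest SHAM library for these strands, so leaving it out widened the difference. The calls without it are therefore no separate evidence.

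Markers of the choroid plexus and of ciliated or other epithelium, which line the ventricles and the brain's surfaces, varied only in part along the same libraries. Of 13 tested strands of this list, 12 were lower and 1 was higher in SCI, against 408 lower and 360 higher of all 768 miRNAs. None was called, against 1.43% of all miRNAs tested, and the median log2 fold change of the list was -0.59. Their summed normalized counts were 28460, 15721 and 30168 in SHAM and 13682, 15366 and 17832 in SCI, so SHAM 2 again lay among the SCI libraries. miR-204-5p, the most abundant of them, was at 16855, 10625 and 18893 in SHAM and at 8940, 9466 and 9465 in SCI (log2 fold change -0.74 ± 0.18, SE, adjusted p = 0.0678). miR-200a-3p was at 1950, 659 and 1750 in SHAM and at 307, 1002 and 1610 in SCI, with overlapping groups. For it SCI 3 lay near SHAM 1 and SHAM 3, and SHAM 2 lay below SCI 2 and SCI 3. The strand that was higher was miR-449a-5p, at 109, 66.3 and 83.4 in SHAM and at 140, 135 and 111 in SCI. Its groups did not overlap (log2 fold change 0.55 ± 0.22, SE, adjusted p = 0.219). The part of these cells in the values of miR-1298-5p and miR-448-5p was not tested. In bulk tissue, fewer cells of a type and less RNA per cell cannot be told apart.

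**Figure D3:**
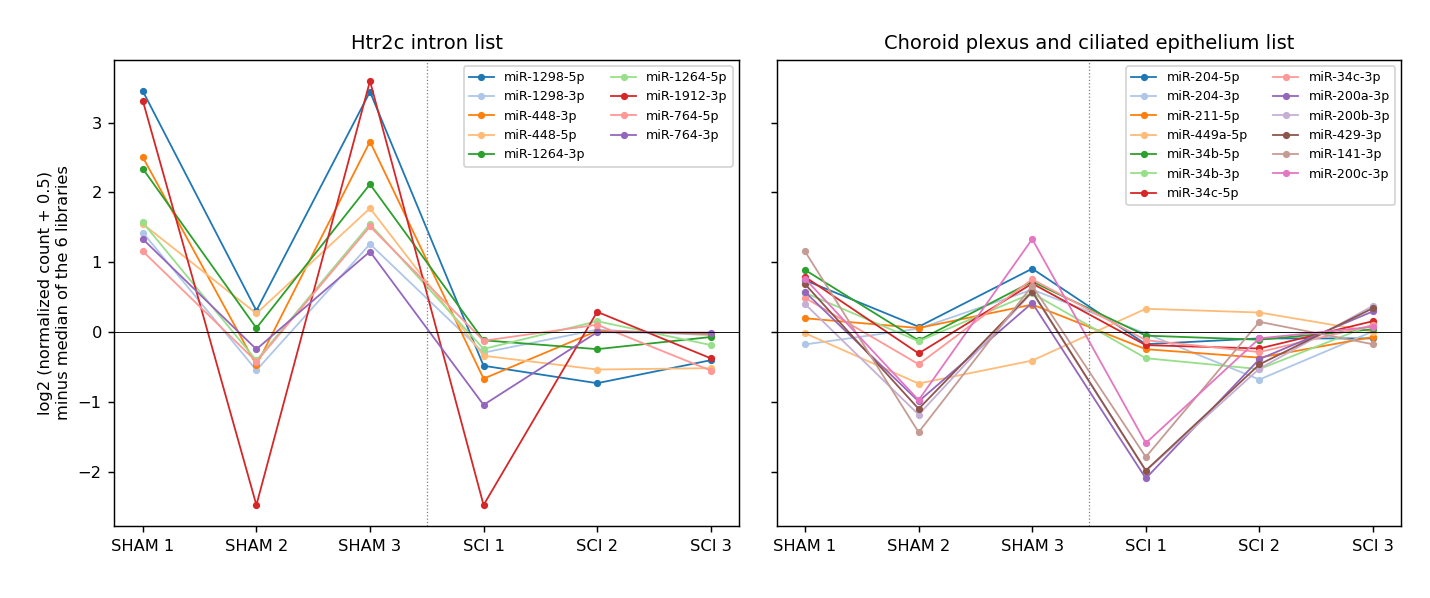
The log2 of the normalized count plus 0.5, minus its median over the 6 libraries, is plotted for the 9 tested strands from Htr2c introns (left) and the 13 tested strands of the choroid plexus and ciliated epithelium list (right), each line being 1 miRNA. On the left SHAM 1 and SHAM 3 stand above the other 4 libraries, and on the right SHAM 1 and SHAM 3 are the highest libraries for most lines.

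Other strands were called only without SHAM 2 and were named after their values were seen. miR-653-5p and miR-489-3p, both from an intron of Calcr, the calcitonin receptor gene, had log2 fold changes of -2.71 and -2.68 without SHAM 2, and of -2.29 (adjusted p = 0.0764) and -2.26 (adjusted p = 0.141) with it. miR-217-5p and miR-216a-5p had -2.04 and -1.68 without SHAM 2, and -1.68 (adjusted p = 0.0896) and -1.36 (adjusted p = 0.128) with it. miR-653-5p was at 103, 14.3 and 111 in SHAM and at 14.4, 20.2 and 14.7 in SCI. miR-653-5p thus had the pattern of the Htr2c strands, high in SHAM 1 and SHAM 3 and low in the other 4 libraries. A choice of strands called only without SHAM 2 favours this pattern, so it is no separate evidence.

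Of the 9 miRNAs that the study names from its sequencing, 8 were tested here and 5 were called, against 1.43% of all miRNAs tested. The study chose them on these libraries among others, so their counts are no independent evidence. miR-26a-1-3p was at 72.8, 80.6 and 74.6 in SHAM and at 200.3, 96.9 and 119 in SCI, without overlap, and had a log2 fold change of 0.89 ± 0.27 (SE, adjusted p = 0.108). miR-551b-5p was at 61.5, 39.4 and 61.0 in SHAM and at 55.9, 59.3 and 62.2 in SCI (log2 fold change 0.09 ± 0.23, SE). The value for miR-668-3p was -0.30 ± 0.11 (log2, SE, adjusted p = 0.201), with the SCI libraries below all SHAM libraries. miR-709-3p was below the filter. The strands of the miR-26 hairpins other than miR-26a-1-3p had log2 fold changes of -0.01 to 0.49, among them miR-26a-5p, at 0.16 ± 0.11 (SE).

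When the reads of all strands with the same seed were summed, 9 of 654 seed families were called (1.38%), 5 higher and 4 lower. Only 77 of the families had at least 2 tested members, and 1 of these was called. It was the family of miR-7b-3p and miR-7a-2-3p, with the seed AACAAGU, whose sums were 329.8, 265 and 403 in SHAM and 963, 830.1 and 928 in SCI (log2 fold change 1.44 ± 0.17, SE, adjusted p = 0.00171). The share of miR-7a-2-3p in the SHAM sums made this difference smaller than that of miR-7b-3p alone. In each of the other called families a single strand was tested, and it was a called miRNA. Without SHAM 2, 24 families were lower. The seed families that dominate the cortex showed small differences. The 9 let-7 strands had log2 fold changes of -0.03 to 0.23, the 5 miR-30 strands of -0.04 to 0.19, the 3 miR-29 strands of 0.02 to 0.04 and the 4 miR-181 strands of -0.14 to 0.05. None of these 21 strands had an unadjusted p under 0.05, against 146 of all 768 miRNAs.

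Lists of miRNAs known from cell types were described by their counts. None of the 13 neuron-enriched strands was called, against 1.43% of all miRNAs tested, and their median log2 fold change was -0.01. miR-9-5p had 0.05 ± 0.13, miR-128-3p -0.08 ± 0.11 and miR-124a-3p -0.01 ± 0.17 (SE). miR-338-3p, which is counted in this list and in that of oligodendrocytes, had the largest value in both, with 57042, 50482 and 46142 in SHAM and 66825, 66789 and 79684 in SCI (log2 fold change 0.47 ± 0.12, SE, adjusted p = 0.0678). Of the 4 oligodendrocyte strands, 3 were higher and 1 was lower. The 5 strands that neuronal activity is known to regulate were not called, with log2 fold changes from -0.02 for miR-132-5p to -0.41 ± 0.12 (SE) for miR-134-5p.

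Of the 9 tested strands of myeloid cells and inflammation, miR-21a-3p was called and the other 8 were not, against 1.43% called among all miRNAs tested. The SCI libraries lay above all SHAM libraries for 1 of the 9 and below them for 3, against 23.8% without overlap among all miRNAs. miR-223-3p, which marks neutrophils and other myeloid cells, was at 301, 265 and 291 in SHAM and at 155, 205 and 155 in SCI, without overlap (log2 fold change -0.74 ± 0.17, SE, adjusted p = 0.0606). miR-146a-5p, a feedback regulator of NF-kB signalling, had -0.30 ± 0.09 (SE, adjusted p = 0.118), also without overlap. miR-155-5p, a miRNA of activated macrophages and microglia, was at 192, 194 and 230.2 in SHAM and at 269.7, 213 and 296 in SCI (log2 fold change 0.34 ± 0.17, SE), with overlapping groups. miR-142a-3p, which is found in haematopoietic cells, had -0.21 ± 0.14 (SE). The summed counts of this list were 98236 to 128555 in SHAM and 119125 to 127708 in SCI.

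The 4 strands of red blood cells had log2 fold changes of -0.37 to -0.24, with summed counts of 4024 to 5281 in SHAM and of 3515 to 4016 in SCI. miR-451a, which red cells hold in plenty, was at 118.7, 93.2 and 83.4 in SHAM and at 62.6, 92.6 and 76.9 in SCI. Only reads that lie wholly within 1 arm were counted, so any reads of miR-451a that cross the hairpin loop are missing from these values. The reads counted for it at P90 12 h were short, 19.2 nt on average in SHAM and 19.4 nt in SCI. Its counts are therefore no measure of its full level. The 4 strands of vascular smooth muscle and pericytes had log2 fold changes of -0.41 to -0.03, and the 2 endothelial strands of miR-126a 0.07 and 0.11. miR-210-3p, the miRNA known best from hypoxia, had 0.11 ± 0.13 (SE). The 9 listed strands of the miR-17-92 cluster and its paralogues, which are not all that were tested, had -0.18 to 0.30. Outside the list, miR-92a-1-5p of that cluster was chosen after its values were seen. It was at 16.7, 23.3 and 17.6 in SHAM and at 40.45, 44.8 and 32.7 in SCI, without overlap. Its log2 fold change was 1.09 ± 0.26 (SE, adjusted p = 0.0649). Of the tested strands from Mir17 to Mir92-1, 8 were higher and 1 was lower. No strand of these 5 lists was called, against 1.43% of all miRNAs tested.

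The chromosome 12 cluster from Mir379 to Mir3072 (38 hairpins, chr12:109709060-109747960) had 68 tested strands. As many were higher as lower, 34 each, and the median log2 fold change was -0.01. The SCI libraries lay above all SHAM libraries for 11 strands and below them for 12, against 90 and 93 of all 768 miRNAs (23.8% together). The summed counts of the cluster were 460702 to 515384 in SHAM and 477591 to 496915 in SCI. The examples that follow were chosen after their values were seen. miR-543-3p was lower, and miR-495-3p had a log2 fold change of -0.46 ± 0.10 (SE, adjusted p = 0.0537). miR-410-3p was at 21031, 17829 and 16779 in SHAM and at 24212, 25940 and 26423 in SCI (log2 fold change 0.46 ± 0.11, SE, adjusted p = 0.0649). miR-376b-3p had -0.51 ± 0.13 and its sister strand miR-376b-5p 0.39 ± 0.11 (SE). On chromosome X, the 11 tested strands from Mir450b to Mir322 gave 3 higher and 8 lower, of which miR-503-5p had the largest difference, at -1.05 ± 0.25 (SE, adjusted p = 0.0649).

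The ratio of the 3p to the 5p strand within a hairpin was tested in 309 hairpins with limma on the log2 scale, with a pseudocount of 0.5. None was called at an adjusted p under 0.05 (0%), and 66 had an unadjusted p under 0.05. The lowest adjusted p was 0.074, for Mir7b. Its log2 ratio was -7.40, -6.07 and -7.16 in SHAM and -4.11, -4.46 and -3.80 in SCI, a difference of 2.75 ± 0.38 (SE). The ratio of Mir21a was -10.9 in SHAM and -9.45 in SCI on average (difference 1.41 ± 0.30, SE, adjusted p = 0.084), and that of Mir667 2.35 and 3.33 (difference 0.98 ± 0.17, SE, adjusted p = 0.0743). The test depended on the weak strands. With both strands at a mean normalized count of at least 50, 8 hairpins were called, 5 with a higher and 3 with a lower ratio. Without SHAM 2 there were 4 with a higher and 1 with a lower ratio.

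The length of the reads also differed between SCI and SHAM. This test was added after the data were seen. For each of 505 miRNAs with at least 50 reads per library on average, the mean read length of every library was compared with limma. Of these, 67 were called at an adjusted p under 0.05 (13.3%), 59 shorter and 8 longer in SCI. With each library left out the test called 27 to 50 shorter and 2 to 7 longer, the fewest shorter without SCI 2. The median difference over the 505 was -0.02 nt, with quartiles of -0.06 and 0.01 nt. Most of the differences were small, and 22 of the 67 were under 0.1 nt. The shorter ones had a median difference of -0.13 nt. All reads assigned to miRNAs were 21.725, 21.745 and 21.758 nt long on average in SHAM and 21.694, 21.71 and 21.685 nt in SCI. At P90 12 h, the same test called 2 of 497 miRNAs (0.402%), and the median difference was 0.02 nt. Whether the 2 time points differ in this was not tested, and neither was the part of RNA quality or of the preparation of the libraries.

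Of the 11 miRNAs with a called level, 9 had enough reads for the length test. Of these 9, 4 were called shorter in SCI, against 59 of all 505 miRNAs in that test (13.3% called in either direction). Reads of miR-671-5p were 23.41, 23.45 and 23.45 nt long in SHAM and 22.99, 22.91 and 22.73 nt in SCI (adjusted p = 0.00243). Its 24-nt sequence made up 47.6%, 50.9% and 51.4% of its reads in SHAM and 27.6%, 28.4% and 22.95% in SCI (adjusted p = 0.000323). The shares of its 21, 22 and 23-nt forms were higher in every SCI library. These are its main forms, which share the 5′ end and the seed.
miR-671-5p, 24 nt: aGGAAGCCcuggaggggcuggagg
miR-671-5p, 23 nt: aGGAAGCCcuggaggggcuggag
miR-671-5p, 22 nt: aGGAAGCCcuggaggggcugga
miR-671-5p, 21 nt: aGGAAGCCcuggaggggcugg
The 22-nt form made up 10.1%, 10.2% and 9.93% of the reads in SHAM and 18.8%, 20.6% and 20.2% in SCI.

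Reads of miR-7b-3p were shorter in SCI as well, although their number was higher, with 21.97, 21.87 and 21.845 nt in SHAM and 21.51, 21.51 and 21.52 nt in SCI (adjusted p = 0.00243). The 22-nt sequence held 81.5%, 86.3% and 85.1% of its reads in SHAM and 59.2%, 59.8% and 62.8% in SCI. Forms that lack the last 1 or 2 bases had a larger share in every SCI library.
miR-7b-3p, 22 nt: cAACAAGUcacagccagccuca
miR-7b-3p, 21 nt: cAACAAGUcacagccagccuc
miR-7b-3p, 20 nt: cAACAAGUcacagccagccu
The 20-nt form held 1.06%, 2.11% and 2.03% in SHAM and 11.2%, 10.4% and 9.90% in SCI. miR-667-5p went from 23.60 to 22.93 nt on average (adjusted p = 0.0196, and 0.0507 without SHAM 1) and miR-6481 from 19.91 to 19.20 nt (adjusted p = 0.0429). The 22-nt form of miR-6481, which starts earlier, held 21.1%, 20.2% and 28.6% in SHAM and 18.5%, 8.51% and 9.70% in SCI. The sister strand miR-7b-5p and miR-7a-5p were among the 8 that were longer, by 0.14 nt and 0.17 nt.

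**Figure D4:**
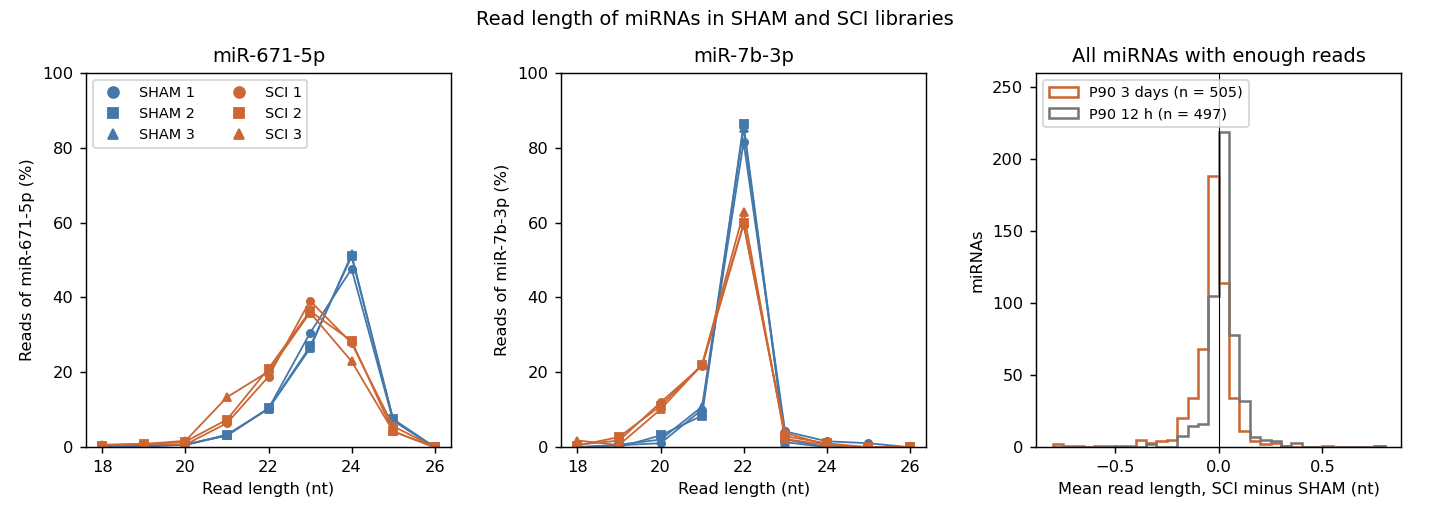
Left and middle, the percentage of the reads of miR-671-5p and of miR-7b-3p is plotted by read length in nt, 1 line per library, SHAM in blue and SCI in orange. In SCI the 24-nt peak of miR-671-5p and the 22-nt peak of miR-7b-3p are lower and the shorter lengths higher. Right, the number of miRNAs is plotted by the difference of the mean read length (SCI minus SHAM, nt, values past 0.8 nt drawn at the edge) at P90 3 days (505 miRNAs) and 12 h (497 miRNAs).

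The changing ends bear on how a level is counted. With the most abundant sequence of each strand in place of the sum, the log2 fold change of miR-671-5p was -2.22 in place of -1.33, that of miR-667-5p -2.24 in place of -1.15, and that of miR-3470b-3p -1.81 in place of -1.02. That of miR-7b-3p was 2.18 in place of 2.64. Counting in this way gave 19 calls in 655 miRNAs, 8 higher and 11 lower, and 10 of the 11 calls were among them. miR-5128 was below the filter in that count.

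The P90 12 h comparison, which shares no library with that of 3 days, gave values for the same miRNAs. The effect at 3 days was compared with that at 12 h in 1 fit over the 12 libraries. Of the 768 miRNAs tested, 1 differed (0.13%), at an adjusted p under 0.05, and 64 had an unadjusted p under 0.05. It was miR-671-5p, with 1540, 1582 and 1556 normalized counts in SHAM and 1434, 1451 and 1532 in SCI at 12 h, against 2383, 2831 and 2578 in SHAM and 1195, 962 and 952 in SCI at 3 days, on the scale of the 12 libraries. Its log2 fold change was -0.08 ± 0.13 at 12 h (SE, adjusted p = 0.883) and -1.33 at 3 days, and the difference of the effects was -1.24 ± 0.18 (SE, adjusted p = 0.00568). The SHAM libraries of 3 days were higher than those of 12 h, and the SCI libraries of 3 days were lower. This call was lost without SCI 2 of 3 days (adjusted p = 0.0792) and without SCI 3 of 3 days (adjusted p = 0.0697), and under a replicate block (adjusted p = 0.144).

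miR-7b-3p and miR-5126 were higher in SCI at 12 h as well. miR-7b-3p had a log2 fold change of 1.99 ± 0.20 at 12 h (SE, adjusted p = 0.00454), and its effect at 3 days exceeded this by 0.65 ± 0.28 (SE), which did not pass the test (adjusted p = 0.523). miR-5126 had 2.86 ± 0.42 at 12 h (SE, adjusted p = 0.0423), with a difference of 0.71 ± 0.62 (SE, adjusted p = 0.871). These were the 2 called miRNAs of the 12 h comparison. miR-206-3p had -0.58 ± 0.40 at 12 h, miR-21a-3p 0.76 ± 0.28 and miR-667-5p -0.35 ± 0.18 (SE), none of them called. miR-1298-5p at 12 h was at 439, 420.0 and 406 in SHAM and at 5382, 396 and 425 in SCI, so that there a single SCI library was high.

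**Figure D5:**
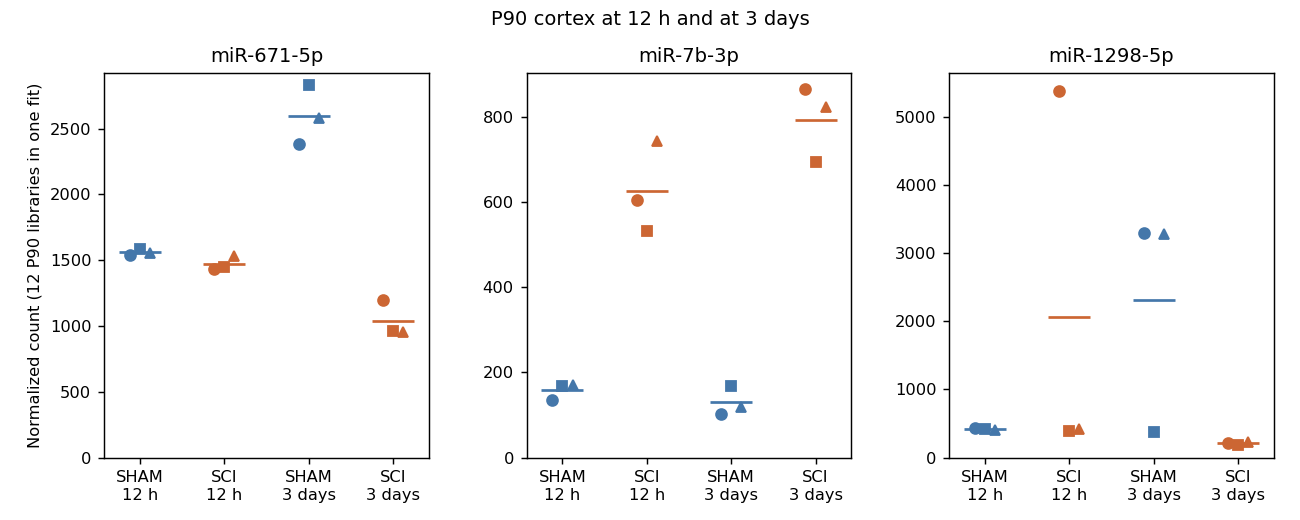
Normalized counts of miR-671-5p, miR-7b-3p and miR-1298-5p are plotted in the 12 P90 libraries by group and time, with a bar at the mean of 3 libraries. For miR-671-5p the groups part at 3 days, for miR-7b-3p at both times, and for miR-1298-5p single libraries stand at 3283 to 5382 against 182 to 439 in the others.

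In P15 mice at 3 days, 2 of the 3 SHAM libraries stood apart from all others. In them 33.8% and 35.6% of the distinct sequences had been read once, against 80.8% to 81.9% in the other 4, and let-7d-3p was at 194880 and 263802 normalized counts against 14288 to 15663. The difference between the effects at P90 and P15 was called by edgeR for none of 895 miRNAs (0%), while 165 had an unadjusted p under 0.05. Without P15 SHAM 3, when only those 2 libraries stood for the SHAM mice, 161 were called higher and 219 lower. Without P90 SHAM 2, 8 were called lower. In the P15 comparison itself, edgeR called none of the 995 miRNAs tested. The adjusted p-values that follow are those at P15. Side by side, miR-7b-3p had log2 fold changes of 2.64 at P90 and 0.85 ± 0.57 at P15 (SE, adjusted p = 0.352). miR-671-5p had -1.33 and -1.99 ± 0.40 (SE, adjusted p = 0.12). miR-6481 had 2.15 and 2.21 ± 0.34 (SE, adjusted p = 0.0931), and miR-21a-3p 1.61 and 1.94 ± 0.75 (SE, adjusted p = 0.166). miR-5126 was higher at P90 and had a value of -2.57 ± 0.98 (SE, adjusted p = 0.166) with overlapping groups at P15. Without the 2 libraries that stood apart, P15 SHAM is left with 1 library.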

How the data were processed

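Small RNA was sequenced by the authors with HD adapters, whose degenerate ends reduce ligation bias. Per the study's methods, reads with unassigned bases were removed and adapters and degenerate bases were trimmed. For every distinct read between 17 and 34 nt, the deposited files give its raw count. Here, reads of 18 nt or more were matched to the arms of the 1174 named miRNA hairpins of GENCODE M21 (GRCm38) by an exact sense match of the whole read. Arms were divided between both RefSeq mature sequences (649 hairpins) or at the loop found by RNAfold 2.7.2 (525 hairpins). Reads that matched several miRNAs (0.159% to 0.195% of the miRNA reads of the 6 libraries) were left out.

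The test of SCI against SHAM was edgeR's quasi-likelihood test (version 4.0.16, R 4.3.3) with TMM scaling. The strand ratio and read length were compared with limma 3.58.1 (read lengths with a trend on abundance). p-values were adjusted by the Benjamini-Hochberg procedure over all features tested. Sums over seed families and the interactions with time and age were fitted with edgeR. For edgeR, the SE was taken as the size of the log2 value over the root of F. The tests were checked on simulated data. DESeq2 1.42.0, other scalings, filters and ways of counting, a replicate block and each library left out were the alternatives. miRNAs were named if called, if the study names them, if they are the other strand of a called one, or if they belong to 19 lists of cell types and families (those with an adjusted p under 0.05 and up to 4 of the rest); other miRNAs of these lists given by value, such as miR-223-3p and miR-155-5p, were chosen after their values were seen. The comparison, miRNAs and lists were chosen with earlier results of these data known. Python 3.11.15 was used for the assignment. The 6 libraries of P15 12 h and the qPCR, culture and protein experiments were not used here.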

Additional observations from a re-analysis of the deposited data

Results flagged for a closer look

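The effect of SCI on miR-671-5p differed between 3 days and 12 h in P90 mice, by -1.24 ± 0.18 on the log2 scale (SE, adjusted p = 0.00568 in edgeR's test of the difference of the effects). It was lower in 3 of 3 SCI libraries than in any SHAM library at 3 days. At 12 h its log2 fold change was -0.08 ± 0.13 (SE, adjusted p = 0.883). The call was lost without SCI 2 of 3 days (adjusted p = 0.0792), without SCI 3 of 3 days (adjusted p = 0.0697) and under a replicate block (adjusted p = 0.144).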

How the results depend on the processing

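Counts of calls are given as higher and lower in SCI. Against 6 and 5 called miRNAs, there were 12 and 33 with no filter on low counts, 2 and 2 with reads of at least 20 nt, 8 and 11 with DESeq2, 8 and 11 with the most abundant sequence, and 4 and 3 with the 12 P90 libraries in 1 fit. Leaving out each library gave 2 to 8 and 1 to 29. miR-551b-5p turned to -0.063 without SHAM 2, and miR-7b-5p to 0.20 with the most abundant sequence. Against 5 and 4 seed families, there were 11 and 26 with no filter, and 3 to 7 and 1 to 24 with each library left out. Against 0 and 0 strand ratios, there were 5 and 3 with both strands at a mean of 50, 4 and 1 with a pseudocount of 5, and 0 to 4 and 0 to 1 with each library left out. Against 0 and 1 differences from 12 h, there were 4 and 20 with no filter, and 0 to 1 and 0 to 3 with each library left out. Against 0 and 0 differences from P15, there were 27 and 12 with no filter. With each library left out there were 0 to 161 and 0 to 219, both maxima without P15 SHAM 3. Without P15 SHAM 1 and 2, the P90 effect minus the P15 effect of miR-671-5p turned from 0.69 to -0.13 (log2). Against 8 longer and 59 shorter miRNAs, each library left out gave 2 to 7 and 27 to 50. The causes were not tested.

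Replicate numbers are shared between the groups. The correlations of same-numbered samples were -0.25, -0.07 and 0.13, and only sample pair 3 correlated best with its own number. This gave no sign that the numbers pair the mice, but 3 samples per group are too few to exclude a pairing. With the replicate number as a block there were 6 and 8 called miRNAs, 7 and 12 seed families, 0 and 0 strand ratios, 0 and 0 differences from 12 h, and 4 longer and 30 shorter miRNAs. Low read counts in SHAM, 13, 4 and 10 for miR-5126 and 10, 1 and 8 for miR-5128, limit the precision of their fold changes.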
